A study of Mus musculus with 2 samples.

Results

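The 10 genes described here encode the glucose carrier of the plasma membrane Slc2a1 (GLUT1), the glycolytic enzymes Hk2, Pfkp, Aldoa, Gapdh, Pgk1, Eno1 and Pkm, the enzyme that turns pyruvate into lactate, Ldha, and the lactate exporter Slc16a3 (MCT4). They were taken by symbol from the feature tables of both libraries, by a list of names drawn up with earlier results of these data known, and make up 10 of 31017 gene symbols (11 of 31053 features, because Aldoa is listed under 2 identifiers, of which the second has 0 UMIs in both libraries). A UMI (unique molecular identifier) marks 1 captured RNA molecule.

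The study asked how a long non-coding RNA, lncLy6c, shapes the macrophages of the mouse gut. Cells of the colon lamina propria labelled cd11b+ were loaded on a 10x Genomics 3′ platform, giving 1 library from WT mice and 1 from mice carrying the label LncRNA17Rik knockout (KO). Each library held pooled cells of male mice 8 weeks old, and no treatment is given for either group. No feature carries the label LncRNA17Rik or the name lncLy6c. Whether the RNA is listed under another symbol is not known here, so the genotype was not checked. With 1 library per genotype there is no replicate check, no test between genotypes, and a difference between libraries cannot be told apart from a difference between genotypes.

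Glycolysis splits glucose into pyruvate in the cytosol and yields ATP without oxygen. Slc2a1 lets glucose in, hexokinase (Hk2) traps it by phosphorylation, and phosphofructokinase (Pfkp) makes the committing step. Aldolase (Aldoa) splits the sugar, Gapdh and Pgk1 oxidise it and harvest the first ATP, enolase (Eno1) and pyruvate kinase (Pkm) complete the path, Ldha regenerates NAD+ by making lactate, and Slc16a3 carries the lactate out. Activated macrophages and dendritic cells are known for raised glycolysis, neutrophils depend on it for most of their energy, and the hypoxia-inducible factor HIF-1 is known to drive many of these genes through sites with the core letters ACGTG.

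In the mouse genome GRCm38 (GENCODE annotation) the genes lie on 6 autosomes and the X. Slc2a1 is at chr4:119108711-119137983 (+) and Eno1 on the same chromosome at chr4:150236721-150248879 (+). Hk2 is at chr6:82725025-82774454 (−) and Gapdh at chr6:125161715-125166467 (−). Ldha is at chr7:46841475-46855627 (+) and the Aldoa identifier that carries its UMIs at chr7:126795234-126800751 (−). Pkm is at chr9:59656368-59679375 (+), Slc16a3 at chr11:120948480-120960868 (+), Pfkp at chr13:6579768-6648777 (−) and Pgk1 at chrX:106187100-106203699 (+).

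The promoters of the members are shown because the genes are known as targets of a shared factor. The letters ACGTG were searched on both strands in windows of 300 bases, 250 before and 50 after each RefSeq start (GRCm38.p6), where a match may also be part of the palindrome CACGTG. Of the 10 members, 8 hold a match, in 9 of their 16 windows, and Pfkp and Eno1 hold none in these windows. Among all 32851 windows 19.6% hold the letters, among all 27025 genes 21.8%, and CACGTG is in 7.15% of windows. The nearest match upstream of the start is printed for each gene that has one there, with 10 bases on either side, on the strand of the gene, the match in capitals (CACGT is the motif on the other strand).
Slc2a1: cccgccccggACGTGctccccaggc
Hk2: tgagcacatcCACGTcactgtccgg
Aldoa: tggctcgagtCACGTcctagcgggg
Pgk1: atggaagtagCACGTctcactagtc
Pkm: ccgatccggtCACGTccgcgccgca
Ldha: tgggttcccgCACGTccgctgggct
Slc16a3: tgcgcgggggACGTGccgcgcgacg
These stretches lie at chr4:119108699-119108723 (Slc2a1, +), chr6:82774492-82774516 (Hk2, −), chr7:126799366-126799390 (Aldoa, −), chrX:106186959-106186983 (Pgk1, +), chr9:59657142-59657166 (Pkm, +), chr7:46845760-46845784 (Ldha, +) and chr11:120949043-120949067 (Slc16a3, +). The match is a description of letters, and no binding was measured. Gapdh holds its match only after the start, and Ldha holds 5 matches at 3 places, of which 2 are the palindrome.

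The study's primers for Gapdh, often taken as a reference in quantitative PCR, are shown, in lower case throughout.
Gapdh forward: tcaacggcacagtcaagg
Gapdh reverse: tactcagcaccggcctca
Both lie in exon 3 of the Gapdh transcript ENSMUST00000118875 (1420 bases), the forward primer at chr6:125163282-125163299 and the reverse at chr6:125163185-125163202 (gene on the − strand), and they bound a product of 115 bases. The same pair of matches is found in the transcripts of 44 other annotated genes. The libraries count molecules at the 3′ end of transcripts, and the reverse primer lies 905 bases from that end. The 3′ ends of 2 members are shared with other genes: 90.5% of the 50-base words in the last 500 bases of Gapdh occur in 138 other genes, and 75.2% of those of Eno1 in 5 others. The share is 7.32% for Pgk1, 3.33% for Aldoa and 0 for the other 6 members, so the counts of Gapdh and Eno1 are uncertain where reads could be split between copies.

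After the study's cell filter the WT library held 2597 cells with 18994564 UMIs (median 5073 per cell). The KO library held 2514 cells with 22331342 UMIs (median 6564.5). Among all deposited barcodes, before the filter, 1 occurred in both libraries. The members took 44768 UMIs in the WT library and 59452 in the KO library. Levels are given as CPM, the UMIs of the gene divided by all UMIs of the same cells and scaled to 1e6. Because the method counts molecules at the 3′ end, CPM is not divided by gene length, but capture can differ from gene to gene. Cells were clustered with the members and 20 other glycolysis genes kept out of the clustering, and a cluster was given a name such as neutrophil-like only from fixed marker genes. Of these classes 8 had 50 or more cells in both libraries, with WT and KO cells as follows: 322 and 125 resident macrophage-like, 546 and 386 inflammatory monocyte-like, 201 and 344 cDC1-like, 151 and 430 cDC2-like (the conventional dendritic cells), 83 and 264 neutrophil-like, 192 and 407 eosinophil-like, 203 and 86 B cell-like, and 226 and 88 T cell-like. B, T, plasma, fibroblast and epithelial-like cells are present although the label reads cd11b+. All fixed markers of each class had UMIs in it, apart from Epx, an eosinophil granule protein, which was at 0 in the eosinophil-like cells of both libraries. Intervals in square brackets are exact 95% intervals and cover counting error only, not differences between cells, mice, pools or libraries. They treat UMIs as independent, although those of a gene can gather in a few cells. In KO resident macrophage-like cells, for example, 5 of 17 Slc16a3 UMIs were in 1 cell.

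**Figure D1:**
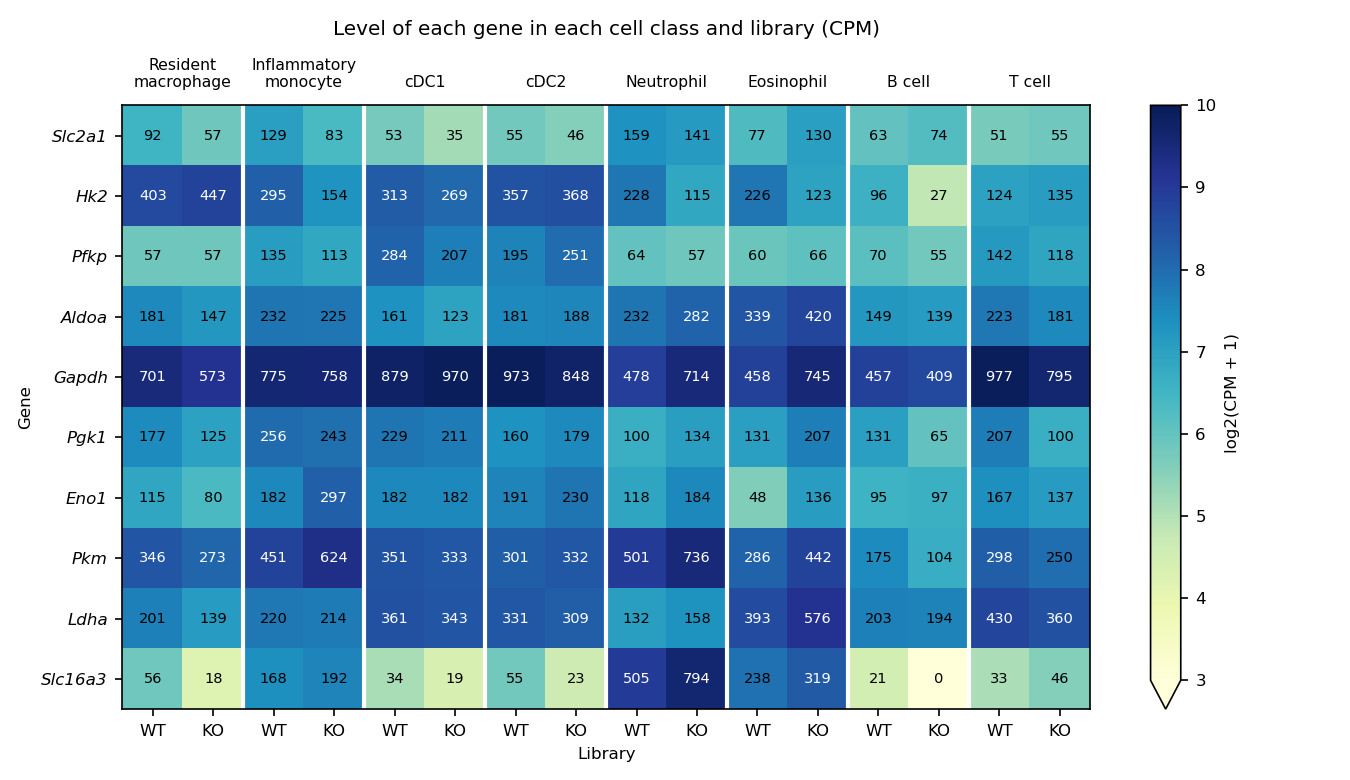
Level of each of the 10 genes (CPM, colour on a log scale, value written in each cell) in the 8 cell classes of the WT and KO libraries. Slc16a3 reaches 505 (WT) and 794 (KO) CPM in neutrophil-like cells and is at 0 in KO B cell-like cells, while Gapdh lies between 409 and 977 CPM in every class.

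The 10 genes together made up between 1164 and 3313 CPM of the RNA of these 8 classes. In WT cells the summed level was 2847 CPM in cDC1-like, 2842 in inflammatory monocyte-like, 2798 in cDC2-like, 2654 in T cell-like, 2518 in neutrophil-like, 2331 in resident macrophage-like, 2257 in eosinophil-like and 1459 in B cell-like cells. Neighbours in this order have overlapping intervals except eosinophil-like and B cell-like cells, so that B cell-like cells alone stand clear of their neighbour in counting error. In KO cells the order was neutrophil-like (3313), eosinophil-like (3161), inflammatory monocyte-like (2904), cDC2-like (2775), cDC1-like (2693), T cell-like (2178), resident macrophage-like (1916) and B cell-like (1164), with overlap between the first pair and between both dendritic classes. B cell-like cells were lowest of the 8 in both libraries. Eosinophil-like and neutrophil-like cells stood higher in the order in KO than in WT, and cDC1-like cells, which led in WT, stood lower.

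Gapdh alone gave 31.7% of the members' UMIs in the WT library and 31.3% in the KO library. The make-up differed by class. In neutrophil-like cells Slc16a3 gave 20.1% (WT) and 24.0% (KO) of the members' UMIs, more than Gapdh itself (19.0% and 21.5%), whereas in both dendritic classes it gave at most 1.96%. In resident macrophage-like cells Hk2 gave 17.3% and 23.3%, the highest share of the 8 classes in both libraries. In eosinophil-like cells Ldha (17.4% and 18.2%) and Aldoa (15.0% and 13.3%) were the leading enzymes after Gapdh in WT, with Pkm (12.7% and 14.0%) passing Aldoa in KO. Pkm gave 15.9% and 21.5% in inflammatory monocyte-like cells and 19.9% and 22.2% in neutrophil-like cells.

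Slc2a1, the basal glucose carrier, was highest in neutrophil-like cells in both libraries, at 159 [111, 222] CPM (WT) and 141 [117, 169] (KO). Inflammatory monocyte-like cells held 129 and 82.7 CPM, resident macrophage-like cells 91.7 and 57.0, eosinophil-like cells 77.4 and 130, B cell-like cells 63.5 and 74.4, cDC2-like cells 55.3 and 46.3, cDC1-like cells 53.0 and 34.9 and T cell-like cells 51.5 and 55.5. The myeloid cells of the monocyte and granulocyte lines thus stood above the dendritic cells in WT, though most neighbouring classes overlap in their intervals (6 of 7 neighbour pairs in WT, 5 of 7 in KO). Slc2a3 (GLUT3), the high-affinity carrier, filled a different place: it reached 173 and 409 CPM in neutrophil-like cells and 107 and 193 in eosinophil-like cells but 6.52 and 3.11 in resident macrophage-like cells. Accordingly Slc2a1 made up 93.4% and 94.8% of the UMIs of both carriers in resident macrophage-like cells, 96.7% [94.4, 98.2] and 83.5% [79.0, 87.4] in inflammatory monocyte-like cells, but 47.9% [36.1, 60.0] and 25.6% [21.7, 29.8] in neutrophil-like cells. In cDC1-like cells the share was 77.2% [69.6, 83.7] in WT and 52.2% [47.1, 57.3] in KO. T cell-like cells went the other way, with 47.3% [39.0, 55.7] in WT and 76.9% [60.7, 88.9] in KO.

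Hk2, the inducible hexokinase bound to mitochondria, was of the 8 classes highest in resident macrophage-like cells, at 403 [376, 432] CPM in WT and 447 [406, 491] in KO. The dendritic classes followed, with 357 and 368 CPM in cDC2-like and 313 and 269 in cDC1-like cells, and the lymphocytes were lowest in WT (124 CPM in T cell-like and 95.8 in B cell-like cells). In the KO library inflammatory monocyte-like (154), eosinophil-like (123) and neutrophil-like cells (115) lay as low as T cell-like cells (135), while in the WT library they held 295, 226 and 228 CPM. Hk2 was the main hexokinase of nearly every class: it made up 68.7% to 100% of the UMIs of Hk2 and Hk1, the housekeeping form. Hk3, a hexokinase of myeloid cells, came closest to it in KO neutrophil-like cells, where Hk2 gave 59.6% [51.6, 67.3] of the UMIs of Hk2 and Hk3, against 83.3% [71.5, 91.7] in WT.

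Pfkp, the platelet-type phosphofructokinase, was a gene of the dendritic classes: cDC1-like cells held 284 [262, 308] and 207 [196, 219] CPM and cDC2-like cells 195 [175, 217] and 251 [240, 264]. It was between 54.6 and 142 CPM in the other 6 classes. The order of cDC1-like and cDC2-like cells was opposite in WT and KO, and in each library their intervals did not overlap. Pfkp outnumbered the liver-type Pfkl everywhere, with 59.5% to 95.4% of the UMIs of the pair, the lowest share being that of KO B cell-like cells.

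Aldoa, the aldolase of most tissues, was highest in eosinophil-like cells at 339 [257, 440] CPM (WT) and 420 [362, 484] (KO). The other classes held 149 to 232 CPM in WT and 123 to 282 in KO, and in WT all 7 neighbour pairs overlap in their intervals. In KO neutrophil-like cells (282 [247, 320]) stood second and apart from both neighbours.

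Gapdh, often taken as a constant reference, ranged 2.39-fold, from 409 CPM in KO B cell-like to 977 in WT T cell-like cells. cDC2-like (973 and 848), cDC1-like (879 and 970), T cell-like (977 and 795) and inflammatory monocyte-like cells (775 and 758) were high, and WT neutrophil-like (478), WT eosinophil-like (458) and B cell-like cells (457 and 409) were low. When every other member was instead expressed per Gapdh UMI, 19 of 71 KO to WT ratios took the opposite sign, among them Aldoa, Pgk1, Pkm and Ldha in neutrophil-like cells. Pgk1, which makes the first ATP of the pathway, was highest in inflammatory monocyte-like cells in both libraries (256 [238, 275] and 243 [227, 261]). It was lowest in WT neutrophil-like (100) and KO B cell-like cells (64.5). In WT all 7 neighbour pairs overlap in their intervals. In KO 5 do, among them T cell-like and B cell-like cells, but not inflammatory monocyte-like and cDC1-like cells.

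Eno1, the enolase of most tissues, lay within 94.6 to 191 CPM in 7 of 8 WT classes, where neighbours overlap, and at 47.6 [20.6, 93.9] in WT eosinophil-like cells on 8 UMIs. In KO cells inflammatory monocyte-like cells stood clear of the rest at 297 [279, 317], followed by cDC2-like cells at 230 [219, 242], and resident macrophage-like cells were lowest at 79.8 [63.0, 99.8]. Pkm, pyruvate kinase of muscle and immune cells, was highest in neutrophil-like cells (501 [412, 604] and 736 [679, 797]) and next in inflammatory monocyte-like cells (451 [427, 476] and 624 [597, 652]). Its lowest level was in B cell-like cells in both libraries (175 and 104).

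Ldha separated the granulocyte classes: eosinophil-like cells held 393 [304, 500] and 576 [508, 650] CPM and neutrophil-like cells 132 [88.4, 190] and 158 [132, 187]. T cell-like (430 and 361), cDC1-like (361 and 343) and cDC2-like cells (331 and 309) were also high, and both macrophage and monocyte classes lay between 139 and 220. Ldhb, the form that favours the reverse reaction, was nearly absent, Ldha making up 93.1% to 100% of the UMIs of the pair.

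Slc16a3 had the widest range of the members. Neutrophil-like cells held 505 [416, 609] CPM on 111 UMIs in WT and 794 [735, 856] on 665 UMIs in KO, eosinophil-like cells 238 [170, 324] and 319 [269, 375], and inflammatory monocyte-like cells 168 [154, 184] and 192 [177, 208]. Every other class was at or below 56.1 CPM. Resident macrophage-like cells held 56.1 and 17.6, cDC2-like cells 54.7 and 23.4, cDC1-like cells 33.6 and 19.4, T cell-like cells 33.1 and 46.2 and B cell-like cells 21.2 and 0 CPM. The lactate exporter was thus a gene of neutrophil, eosinophil and monocyte-like cells in both libraries. Set against inflammatory monocyte-like cells of the same library, neutrophil-like cells had a log2 ratio of 1.59 [1.28, 1.89] in WT and 2.05 [1.89, 2.21] in KO, and Slc16a3 was the 1 member at least 2-fold higher in either library (9.72% of all genes tested were that much higher in WT and 10.2% in KO). Pfkp and Pgk1 were at least 2-fold lower in WT neutrophil-like cells (31.0% of all genes), at −1.08 and −1.35, and no member was in KO (43.3% of all genes).

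Because cells differ in depth, the share of cells with a UMI was also taken after thinning each cell to 500 UMIs. Slc16a3 was then seen in 18.1% [10.5, 28.0] of WT and 29.2% [23.8, 35.1] of KO neutrophil-like cells, in 9.38% and 14.5% of eosinophil-like cells and in 7.69% and 11.4% of inflammatory monocyte-like cells (50.6%, 75.4%, 15.6%, 26.8%, 42.5% and 61.9% in the same order without thinning). In B cell-like cells the thinned share was 1.97% in WT, and no other class passed 3.31%. Median depths were 2287 and 3009 UMIs in neutrophil-like cells and 2978 and 4407.5 in B cell-like cells. Any of the 10 genes was seen at this depth in 43.3% to 79.0% of the cells of a class, lowest in WT B cell-like and highest in KO inflammatory monocyte-like cells.

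**Figure D2:**
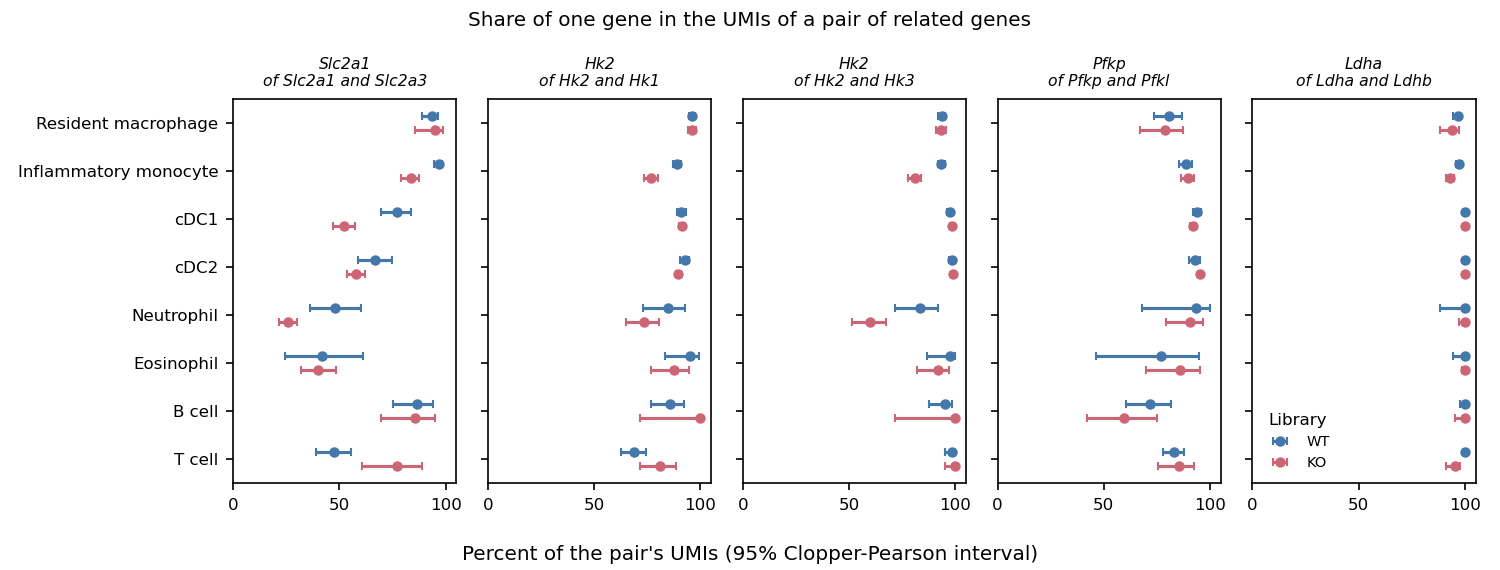
Percent of the UMIs of a pair of related genes that belong to the named member, by class and library, with exact 95% Clopper-Pearson intervals. Slc2a1 makes up 47.9% (WT) and 25.6% (KO) of its pair with Slc2a3 in neutrophil-like cells and 41.9% and 40.1% in eosinophil-like cells. In T cell-like cells it makes up 47.3% and 76.9%. Ldha makes up 93.1% to 100% of its pair in every class.

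The comparison of KO with WT asked in which cell classes the pathway differed between the libraries. A member is said to be past 2-fold where its log2 ratio of CPM, with 1 CPM added to each level, was at least 1 in size and it had at least 20 UMIs over both libraries. This is a rule of size, not a test. Of 79 member and class pairs that met the UMI minimum, 1 was at least 2-fold higher in KO and 5 at least 2-fold lower. In resident macrophage-like cells Slc16a3 was lower and none higher (9.33% of all genes tested were lower by that much and 3.68% higher). In cDC2-like cells Slc16a3 was lower and none higher (7.71% and 4.78%). In B cell-like cells Hk2 and Pgk1 of 9 members tested were lower (10.1%, with 1.94% higher), in T cell-like cells Pgk1 (16.5%, with 3.77% higher), and in eosinophil-like cells Eno1 was higher and none lower (8.52% higher, 5.55% lower). No member passed in inflammatory monocyte-like cells (2.79% higher, 7.71% lower), cDC1-like cells (2.76% and 2.56%) or neutrophil-like cells (5.69% and 14.9%). Against 10 members a class, 1 or 2 past the fold is near the background in most of these classes.

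The summed level gave a smaller but wider-spread picture. Its KO to WT log2 ratio was 0.49 [0.32, 0.65] in eosinophil-like and 0.40 [0.26, 0.53] in neutrophil-like cells, and −0.33 [−0.48, −0.17] in B cell-like, −0.29 [−0.38, −0.19] in T cell-like and −0.28 [−0.36, −0.20] in resident macrophage-like cells. It was 0.03 [−0.01, 0.07] in inflammatory monocyte-like, −0.01 [−0.06, 0.03] in cDC2-like and −0.08 [−0.12, −0.04] in cDC1-like cells. Thus the granulocyte classes were higher in KO and the lymphocyte and resident macrophage classes lower. The resident macrophage value turned to 0.0938 with each library clustered alone and to 0.0850 with the unnamed Retnla cluster counted as resident, and was −0.016 with each cell assigned by its top marker score. The median ratio of all genes tested was below 0 in 7 of 8 classes, so the values are also given against it. That median was −0.22 in resident macrophage-like, −0.18 in inflammatory monocyte-like, −0.09 in cDC1-like, −0.21 in cDC2-like, −0.20 in neutrophil-like, 0.04 in eosinophil-like, −0.11 in B cell-like and −0.24 in T cell-like cells. Relative to it the sum stood at 0.60 in neutrophil-like and 0.45 in eosinophil-like cells and at 0.21 in inflammatory monocyte-like, 0.20 in cDC2-like and 0.01 in cDC1-like cells. It stood at −0.07 in resident macrophage-like, −0.05 in T cell-like and −0.22 in B cell-like cells. Over the members the median ratio was 0.35 in neutrophil-like and 0.59 in eosinophil-like cells, with 9 of 10 above the all-gene median in each, and −0.42 in resident macrophage-like cells, with 2 of 10 above.

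**Figure D3:**
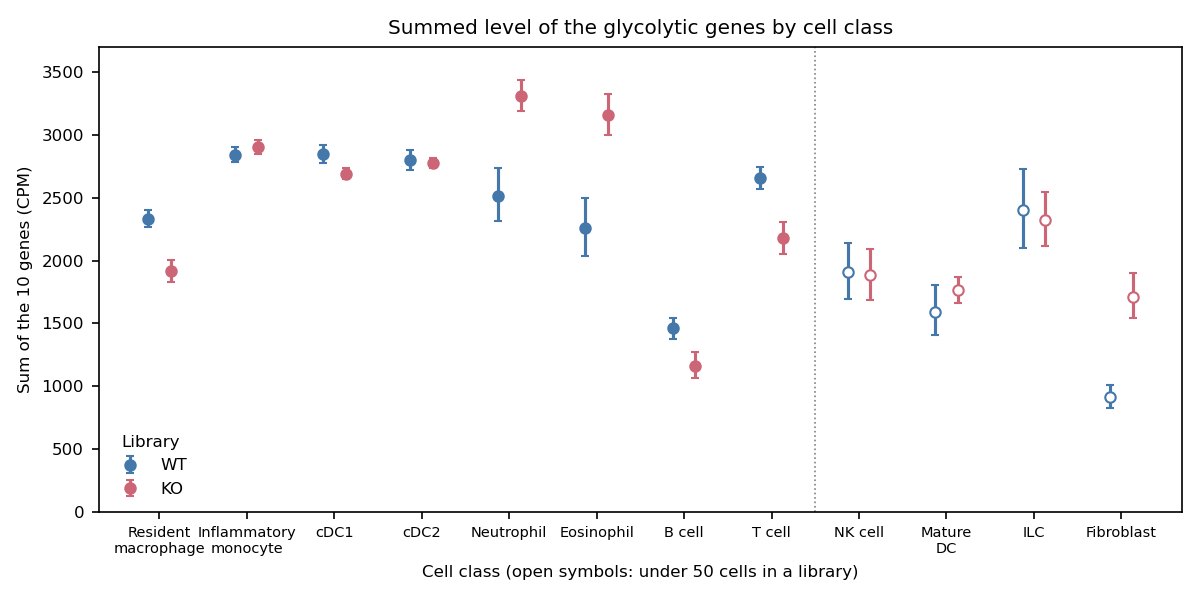
Summed level of the 10 genes (CPM) in each class of the WT and KO libraries, with exact 95% Poisson intervals. KO lies above WT in neutrophil-like (3313 against 2518) and eosinophil-like cells (3161 against 2257) and below it in resident macrophage-like, B cell-like and T cell-like cells.

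Each class was also split into deeper and shallower cells at the median depth of its cells in the same library. These medians differed between libraries, for example 5097.5 UMIs in WT and 9152.5 in KO inflammatory monocyte-like cells. The depth groups are therefore not matched in depth between WT and KO, and their ratios do not remove a difference in depth. Among the deeper neutrophil-like cells the sum was 2371 (WT) and 3360 (KO) CPM, a log2 ratio of 0.50 [0.34, 0.67], and among the shallower ones 2825 and 3230, a ratio of 0.19 [−0.03, 0.42] whose interval includes 0. Eosinophil-like cells held 2423 and 3454 CPM among the deeper (0.51 [0.32, 0.71]) and 1937 and 2547 among the shallower cells (0.40 [0.09, 0.71]). Resident macrophage-like cells were lower in KO in both depth groups, at 2467 against 2017 (−0.29 [−0.38, −0.20]) and 1769 against 1543 (−0.20 [−0.39, −0.0039]). Inflammatory monocyte-like cells differed by depth: the deeper cells held 3038 and 2918 CPM (−0.06 [−0.11, −0.01]), the shallower ones 2216 and 2869 (0.37 [0.28, 0.46]). In the lymphocyte classes the ratio was below 0 among the deeper cells (−0.44 [−0.63, −0.25] in B cell-like and −0.32 [−0.43, −0.20] in T cell-like cells), while among the shallower ones the interval included 0 (0.11 and −0.16).

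Eosinophil-like cells were the shallowest class, with a median of 743.5 UMIs in WT and 970 in KO, and 167942 and 455195 UMIs in all. Of the members there, Eno1 had a log2 ratio of 1.52 [0.45, 2.79], from 8 UMIs in WT to 62 in KO. Gapdh followed at 0.70 [0.34, 1.08], Pkm at 0.63 [0.17, 1.11] and Ldha at 0.55 [0.16, 0.96]. Hk2 was the exception, at −0.88 [−1.50, −0.25]. In neutrophil-like cells Slc16a3 0.65 [0.36, 0.95], Eno1 0.63 [0.03, 1.29], Gapdh 0.58 [0.28, 0.89] and Pkm 0.56 [0.26, 0.86] were higher in KO, and Hk2 was −0.99 [−1.50, −0.47], from 228 [169, 300] to 115 [92.8, 140] CPM. Slc2a1 and Pfkp were 0.74 and 0.15 in eosinophil-like but −0.18 and −0.15 in neutrophil-like cells, all with intervals that include 0. So did those of Ldha in neutrophil-like (0.25) and Slc16a3 in eosinophil-like cells (0.42). The 2 classes were not tested against each other. Neutrophil markers also differed in these cells, with a summed level of 41083 CPM in WT and 78487 in KO neutrophil-like cells and 9241 and 7041 in eosinophil-like cells. Eosinophil markers in eosinophil-like cells summed to 1655 CPM in WT and 1742 in KO (5 of 6 seen), below the neutrophil markers there. Resident macrophage markers went from 1079 to 320 CPM in neutrophil-like and from 411 to 61.5 in eosinophil-like cells (7 or 8 of 8 seen), and inflammatory monocyte markers from 1179 to 643 and from 274 to 562 (6 of 7 seen). The median mitochondrial share was 1.47% (WT) and 0.655% (KO) in neutrophil-like and 3.55% and 4.91% in eosinophil-like cells. The part of these in the ratios of the members was not tested.

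Single members were also counted by whether the counting interval of their ratio was clear of 0. In resident macrophage-like cells 0 members lay above and 8 below (9.39% and 22.9% of all genes tested), in inflammatory monocyte-like cells 3 and 3 (13.1% and 27.9%), in cDC1-like cells 1 and 5 (10.2% and 20.5%) and in cDC2-like cells 3 and 2 (11.6% and 29.3%). In neutrophil-like cells 4 lay above and 1 below (9.70% and 20.1%), in eosinophil-like cells 4 and 1 (9.76% and 8.94%), in B cell-like cells 0 and 3 of 9 (6.92% and 13.3%) and in T cell-like cells 0 and 3 (9.65% and 21.8%). A gene with more UMIs has a narrower interval, so these counts depend on level as well as on difference.

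Hk2 was lower in KO, with an interval clear of 0, in 5 of 8 classes. Beside the granulocyte classes these were B cell-like cells at −1.81 [−2.87, −0.89], from 77 UMIs in WT (17 of them in 1 cell) to 11 in KO, inflammatory monocyte-like cells at −0.93 [−1.10, −0.77], from 859 to 500 UMIs, and cDC1-like cells at −0.22 [−0.35, −0.09]. In resident macrophage-like (0.15 [−0.03, 0.32]), cDC2-like (0.04) and T cell-like cells (0.12) the interval included 0. The mean Hk2 level was 255 CPM in WT and 205 in KO with each class weighted equally, 290 and 274 over the pooled cells of the 8 classes and 276 and 278 over all cells. The cDC1-like ratio ran from −0.22 to 0.064 over the alternatives. Hk2 was also high in WT epithelial-like cells (520 CPM, 74 cells, against 1 such cell in KO), and the summed level of 6 epithelial markers in the 8 classes ran from 64.5 to 339 CPM in WT and from 13.3 to 67.8 in KO. Markers of plasma cells, of which the WT library held 236 and the KO library 5, ran from 185 to 1077 CPM in WT and from 62.1 to 155 in KO. In inflammatory monocyte-like cells the summed level of 8 resident macrophage markers was 3683 CPM in WT and 1711 in KO (8 and 7 of them with UMIs), and that of 7 neutrophil markers 450 and 1245 (6 and 7 with UMIs). In B cell-like cells neutrophil markers summed to 923 CPM in WT and 17.4 in KO (6 and 3 of 7 seen). The part of such RNA in the Hk2 differences was not tested.

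**Figure D4:**
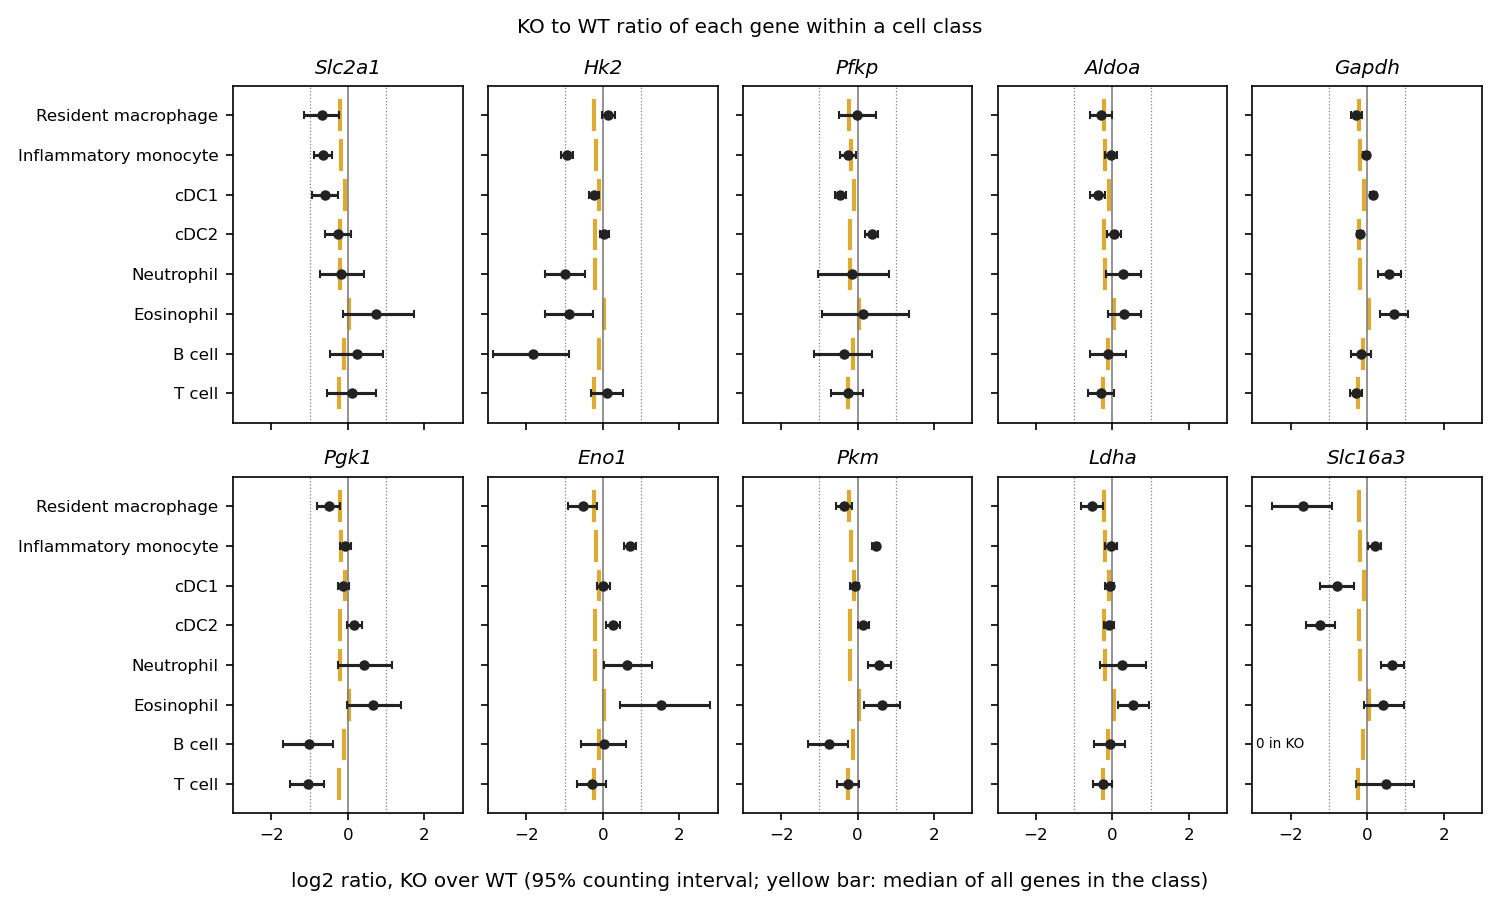
KO to WT log2 ratio of CPM for each of the 10 genes in the 8 classes, with exact 95% intervals for counting error. Slc16a3 lies below −1 in resident macrophage-like and cDC2-like cells and above 0 in neutrophil-like cells, and Hk2 lies below 0 with its interval in 5 of 8 classes.

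Slc16a3 had the ratio of widest span over the classes. It was −1.67 [−2.50, −0.93] in resident macrophage-like cells (112 UMIs in WT, 17 in KO), −1.23 [−1.61, −0.84] in cDC2-like (94 and 155 UMIs) and −0.79 [−1.23, −0.35] in cDC1-like cells, against 0.65 in neutrophil-like and 0.19 [0.02, 0.36] in inflammatory monocyte-like cells. In B cell-like cells 17 UMIs were seen in WT and 0 in KO, that is 21.2 [12.3, 33.9] CPM against 0 with an upper exact limit of 9.15, on fewer UMIs than the minimum of 20. Neutrophil markers in these B cell-like cells summed to 923 CPM in WT (742 UMIs, 6 of 7 markers) and 17.4 in KO (7 UMIs, 3 of 7 markers). In resident macrophage-like cells inflammatory monocyte markers summed to 1217 CPM in WT and 210 in KO, with UMIs for 7 of 7 in each, and the median mitochondrial share of a cell was 3.68% and 5.55%. The same markers went from 1430 to 546 CPM in cDC2-like and from 1939 to 709 in cDC1-like cells, with 6 of 7 seen in WT and 7 in KO. The part of these in the Slc16a3 values was not tested. The resident macrophage value depended on which cells were classed so: it was −0.60 [−1.56, 0.32] with 4000 variable genes, an interval that includes 0, −0.51 with each library clustered alone, −0.82 with each cell assigned to the class of its top marker score and −0.63 with the unnamed Retnla cluster counted as resident, all under 2-fold. The cDC1-like value ran from −0.91 to 0.78 over the alternatives. The cDC2-like value is that of a class at 54.7 and 23.4 CPM, far below the neutrophil level in either library.

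In resident macrophage-like cells 7 members besides Slc16a3 had intervals below 0, as had 22.9% of all genes tested: Slc2a1 (−0.69 [−1.15, −0.24]), Ldha (−0.54 [−0.83, −0.25]), Eno1 (−0.53 [−0.92, −0.15]), Pgk1 (−0.50 [−0.81, −0.20]), Pkm (−0.35 [−0.56, −0.14]), Aldoa (−0.30 [−0.59, −0.01]) and Gapdh (−0.29 [−0.43, −0.15]). Hk2 and Pfkp were the exceptions, at 0.15 and −0.0031 with intervals that include 0. Under the 11 alternatives Hk2 ran from −0.23 to 0.26 and Pfkp from −0.20 to 0.77, with the opposite sign in 4 and 5 of them. Read against the median of all genes in the class (−0.22), 3 members had intervals below it, Slc2a1, Ldha and Slc16a3. Hk2 had one above it, while those of the other 6 include it. The share of all genes with intervals clear of that median is not given here, so these counts have no background beside them. Over 11 alternatives Slc2a1 (−2.03 to −0.32), Ldha (−0.63 to −0.039) and Slc16a3 (−2.07 to −0.51) stayed below 0, whereas Eno1 (up to 0.55), Gapdh (up to 0.16), Pkm (up to 0.12), Aldoa (up to 0.16) and Pgk1 (up to 0.0022) were above 0 in 1 to 4 of them. The interval included 0 in 1 of the 11 for Slc2a1 and Slc16a3 but in 4 for Ldha. It did so in 3 for Gapdh and Pgk1, 4 for Pkm, 5 for Eno1 and 9 for Aldoa. In inflammatory monocyte-like cells the equal sums covered unequal members. Eno1 (0.71 [0.55, 0.86]) and Pkm (0.47 [0.37, 0.57]) were higher in KO and Hk2 (−0.93), Slc2a1 (−0.65 [−0.88, −0.42]) and Pfkp (−0.25) lower. The share of the members' UMIs went from 6.40% to 10.2% for Eno1 and from 15.9% to 21.5% for Pkm, and from 10.4% to 5.32% for Hk2 and 4.55% to 2.85% for Slc2a1. In the dendritic classes Pfkp went in opposite directions, with −0.46 [−0.60, −0.31] in cDC1-like and 0.37 [0.20, 0.54] in cDC2-like cells. The cDC2-like class was a cluster of 148 WT and 315 KO cells led by Plet1, with Pfkp at 197 [176, 220] and 240 [227, 254] CPM, and a cluster led by Ccl17 and Mgl2 of 3 and 115 cells, with 282 [258, 308] CPM in KO. Over the alternatives the Pfkp ratio was −0.63 to −0.36 in cDC1-like cells but −0.053 to 0.48 in cDC2-like cells, where it was 0.00022 at resolution 0.5 and −0.053 with the stricter cell filter. The line between these classes moved with the clustering: the cDC1-like class held 201 WT and 344 KO cells here and 23 and 99 at resolution 0.5, and its WT cells held 1130 CPM of cDC1 markers beside 1939 of inflammatory monocyte markers. In the lymphocyte classes Pgk1 was lower in KO, from 207 [184, 233] to 99.8 [75.0, 130] CPM in T cell-like (−1.06 [−1.50, −0.63]) and from 131 [107, 158] to 64.5 [42.1, 94.5] in B cell-like cells (−1.02 [−1.70, −0.39]). The T cell-like class was 3 clusters, and within them Pgk1 was −1.67 [−2.57, −0.90] in the one led by Gzma and Gzmb (142 WT and 32 KO cells), −0.46 [−1.24, 0.28] in that led by Icos and Tnfrsf4 (57 and 25) and −0.22 [−1.33, 0.93] in that led by Lef1 (27 and 31). The sums differed there by −0.37 [−0.52, −0.22], 0.11 [−0.05, 0.28] and −0.43 [−0.69, −0.18]. Plasma cell markers in T cell-like cells went from 1077 to 99.8 CPM (6 and 3 of 6 seen). Neutrophil markers in B cell-like cells went from 923 to 17.4 CPM (6 and 3 of 7 seen), and the part of either was not tested.

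The classes of macrophages and monocytes were made of different clusters in each library. Of the resident macrophage-like cells a cluster led by the complement genes C1qa to C1qc held 316 WT and 51 KO cells, and a cluster led by Ccl4, Ifnb1 and Mmp13 held 6 and 74. Among inflammatory monocyte-like cells a cluster led by Ly6i and Cxcl9 held 481 and 41, and a cluster led by Chil3 and Ace 32 and 275. Comparing KO with WT within a cluster separates some of the differences above.

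In the C1q resident cluster the summed level was 2337 CPM in WT and 1888 in KO, a log2 ratio of −0.31 [−0.43, −0.18]. Slc2a1 (91.8 and 22.4 CPM, −2.03 [−3.37, −0.96], 180 and 7 UMIs) and Slc16a3 (−1.82 [−3.47, −0.56], 111 and 5 UMIs) were past 2-fold lower (11.3% of all genes; 0 members and 5.77% of genes higher). Pkm (−0.74 [−1.13, −0.37]) and Pgk1 (−0.75 [−1.31, −0.24]) were lower as well, and Hk2, Aldoa, Gapdh, Eno1 and Ldha had intervals that include 0. Inside the KO library the Ccl4 and Ifnb1 cluster held more Slc2a1 (73.6 against 22.4 CPM, 1.72 [0.56, 3.11]) and Hk2 (497 against 342, 0.54 [0.22, 0.87]) than the C1q cluster and less Eno1 (56.7 against 128, −1.17 [−1.86, −0.49]) and Ldha (−0.76 [−1.27, −0.24]). Of 9 members tested 1 was past 2-fold higher (6.63% of all genes) and 1 lower (10.6%), and the sums were alike, 1929 and 1888 CPM with a ratio of 0.03 [−0.11, 0.17].

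Among the monocyte clusters the interval of the Hk2 ratio included 0 in the Ly6i cluster and lay below 0 in the rest of the class. Within the Ly6i cluster Hk2 was 289 CPM in WT and 346 in KO (0.26 [−0.09, 0.60]), with Eno1 at 0.15 and Pkm at 0.04, and Slc16a3 alone was past 2-fold, at 172 and 74.5 CPM (−1.21 [−2.00, −0.51]; 17.6% of all genes lower, 3.88% higher). Within the Chil3 cluster Hk2 was 220 and 130 CPM (−0.76 [−1.20, −0.29]) and Eno1 150 and 297 (0.99 [0.48, 1.54]), with no member past 2-fold (9.95% of genes higher, 7.78% lower). In the remaining cells of the class (33 WT and 70 KO) Hk2 was 442 and 189 CPM (−1.22 [−1.66, −0.79]) and the sum 2993 and 3332 (0.15 [0.02, 0.29]). In the WT library no member was past 2-fold between the Chil3 and Ly6i clusters (5.05% of genes higher, 15.7% lower). Within the KO library the Chil3 cluster held less Hk2 than the Ly6i cluster (130 against 346 CPM, −1.41 [−1.77, −1.04]; 8.53% of genes lower) and more Slc16a3 (213 against 74.5, 1.52 [0.82, 2.31]; 14.7% of genes higher), at nearly the same sum (2827 and 2823 CPM).

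The unnamed Retnla cluster (28 WT and 165 KO cells), which carries C1q markers beside monocyte markers, had no member past 2-fold (9.38% of genes higher, 7.25% lower), with Hk2 at 547 and 373 CPM (−0.55 [−0.82, −0.27]) and near-equal sums of 2813 and 2840.

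**Figure D5:**
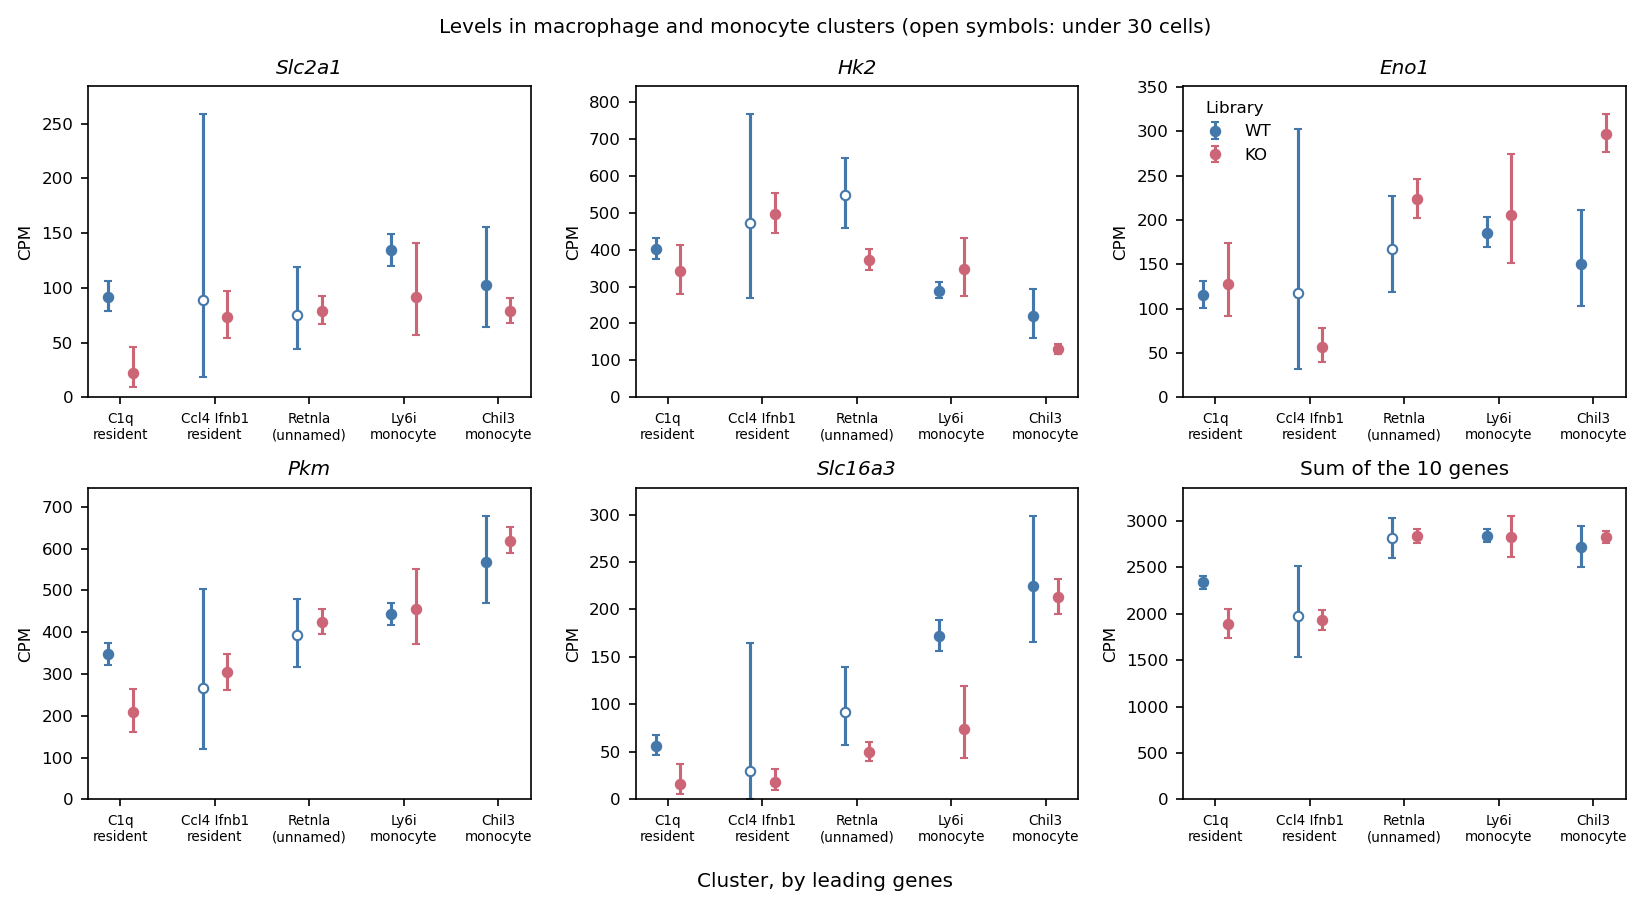
Levels (CPM, exact 95% Poisson intervals) of Slc2a1, Hk2, Eno1, Pkm, Slc16a3 and the sum of the 10 genes in 5 macrophage and monocyte clusters of the WT and KO libraries, open symbols marking groups of under 30 cells. Slc2a1 in the C1q cluster is 91.8 (WT) and 22.4 CPM (KO), and Hk2 in the Chil3 cluster is 220 and 130 CPM.

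In cDC1-like cells a cycling cluster (23 WT and 99 KO cells, led by histone genes and Top2a) was set against the non-cycling one (178 and 245). The sums were 2803 and 2860 CPM in WT and 2771 and 2633 in KO. In KO, cycling cells held less Aldoa (68.4 against 165 CPM, −1.27 [−1.53, −1.02], the 1 member past 2-fold; 2.20% of all genes lower, 6.53% higher) and more Gapdh (1086 against 881, 0.30 [0.23, 0.38]). In WT no member was past 2-fold (7.51% of genes higher, 6.96% lower), and Aldoa was 136 against 169 CPM (−0.31 [−0.72, 0.08]). Between KO and WT, Slc16a3 was past 2-fold lower in the non-cycling cells (17.7 against 38.0 CPM, −1.10 [−1.64, −0.57]; 3.41% of genes lower, 2.44% higher). In the cycling cells no member passed (4.93% lower, 6.27% higher), with Aldoa at −0.99 [−1.41, −0.56].

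Classes under 50 cells in a library were kept out of the counts above. Innate lymphoid cell-like cells (17 WT, 22 KO) held sums of 2399 and 2320 CPM, with Hk2 at 615 [468, 794] and 334 [258, 424], in WT above its level in resident macrophage-like cells. Fibroblast-like cells (80 WT, 21 KO) held a sum of 912 CPM in WT and 1712 in KO (0.91 [0.70, 1.12]), with Gapdh at 1.25 and Eno1 at 1.93 past 2-fold (8.80% of all genes higher, 12.0% lower). NK cell-like cells (26 and 41) held near-equal sums (1906 and 1882), with Hk2 at 319 CPM on 48 UMIs in WT, 11 of them in 1 cell, and 38.1 on 7 UMIs in KO, the 1 member past 2-fold (5.99% of genes lower, 6.71% higher). In mature dendritic cell-like cells (19 and 40) Hk2 was 106 and 244 CPM (1.20 [0.47, 2.01]; 8.33% of genes higher, 16.2% lower). The WT epithelial-like cells held 3802 CPM, above every class of immune cells in WT, with 646 of Aldoa and 1072 of Gapdh.

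Over whole libraries the members made up 2357 CPM in WT and 2662 in KO, a log2 ratio of 0.18 [0.16, 0.19]. Without the plasma cell-like cells, which the WT library held in 236 and the KO library in 5 cells, the levels were 2632 and 2671 CPM (0.02 [0.00, 0.04]). Over the 8 classes alone they were 2611 and 2710 (0.05 [0.03, 0.07]), and with these classes weighted equally 2463 and 2513 (0.03). Each of these ratios is smaller than that of all cells. Single members depended on the weighting. Equal weights gave 0.35 for Slc16a3, 0.29 for Eno1 and −0.32 for Hk2, the pooled 8 classes 0.09 [−0.02, 0.21], 0.39 and −0.08, and all cells 0.56, 0.66 and 0.0097 [−0.044, 0.063].

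The other genes of the pathway and its neighbours were read from fixed lists. Of 20 other glycolysis genes 16 were tested in inflammatory monocyte-like cells, and 5 were past 2-fold higher in KO (2.79% of all genes) and none lower. They included Slc2a3 (4.46 and 16.4 CPM, 1.87), Slc2a6, a hexose carrier of lysosomes (27.1 and 59.6, 1.14), Eno3, the muscle enolase (5.49 and 31.2, 2.51), and Ldhb (5.83 and 15.7, 1.43), all at low levels beside the members. Neutrophil markers in these cells went from 450 to 1245 CPM, and most of the class was the Ly6i cluster in WT and the Chil3 cluster in KO, whose part was not tested. In neutrophil-like cells 1 of 9 was higher (5.69% of all genes), Slc2a3 (173 and 409 CPM, 1.24), and in eosinophil-like cells 1 of 4 (8.52%), Pgam1, the phosphoglycerate mutase (41.7 and 103, 1.31). In T cell-like cells 2 of 8 were lower (16.5% of all genes), Slc2a3 (57.4 and 16.6, −1.79) and Tpi1, triose phosphate isomerase (104 and 37.0, −1.50), and in cDC2-like cells 1 of 15 (7.71%), Eno3 (−1.39). None of 11 passed in resident macrophage-like, 14 in cDC1-like or 5 in B cell-like cells.

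Of 14 other HIF-1 targets in the feature tables, 9 were tested in resident macrophage-like cells and 5 were past 2-fold lower in KO (9.33% of all genes), with a median of −1.02 beside −0.22 over all genes. The lower level of inflammatory monocyte markers in these KO cells (1217 and 210 CPM) stands beside this. The class was also made of different clusters, with 316 WT and 51 KO cells in the C1q cluster and 6 and 74 in the Ccl4 and Ifnb1 cluster. The part of either was not tested, and values of this list under the alternatives are not given here. Vegfa, a growth factor for blood vessels, was 145 and 16.6 CPM (−3.13), Mxi1, a partner of Max, 143 and 42.5 (−1.75), Ndrg1, a stress-response gene, 123 and 49.8 (−1.30) and Ero1l, an oxidase of protein folding, 37.6 and 17.6 (−1.09). Vegfa was lower also in cDC1-like (−1.59, 1 of 10 lower, 2.56% of all genes), cDC2-like (−1.60, 1 of 11, 7.71%) and T cell-like cells (−1.58). Inflammatory monocyte markers in these classes went from 1939 to 709, 1430 to 546 and 917 to 301 CPM. Their part was not tested. In T cell-like cells 3 of 10 were lower (16.5% of all genes) and in B cell-like cells 2 of 8 (10.1%), Mxi1 among them in both (−1.07 and −1.35). In neutrophil-like cells Ndrg1 was higher (27.3 and 107 CPM, 1.98), with 1 of 9 higher and 1 lower (5.69% and 14.9% of all genes), in eosinophil-like cells 1 of 6 was higher (8.52%), and in inflammatory monocyte-like cells none of 11 passed.

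Genes that pass pyruvate on to the mitochondria passed the fold in 4 of 8 classes. In eosinophil-like cells 2 of 5 were past 2-fold higher (8.52% of all genes), among them Pdhb, a subunit of pyruvate dehydrogenase, at 53.6 and 163 CPM (1.60), and in neutrophil-like cells 1 of 4 (5.69%), the pyruvate carrier Mpc1 (127 and 276, 1.11). In B cell-like cells 1 of 6 was higher (1.94%), with a list median of 0.30 beside −0.11 over all genes. In T cell-like cells 3 of 8 were lower, where 16.5% of all genes were, with citrate synthase, Cs, at 114 and 49.9 CPM (−1.19). The list median there was −0.13 beside −0.24 over all genes. In resident macrophage-like cells none of 8 passed, with a list median of −0.64 beside −0.22. Of the pentose phosphate genes, G6pdx, the entry enzyme, was 31.9 and 83.7 CPM in inflammatory monocyte-like cells (1.39, 1 of 7 higher, 2.79% of all genes) and Taldo1, transaldolase, 601 and 1306 in neutrophil-like cells (1.12, 1 of 5 higher, 5.69%). Rpe was lower in resident macrophage-like cells (22.1 and 6.22, −1.83, 1 of 7 lower, 9.33%). With so few genes tested, a count of 1 says little beside these shares.

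Across the 16 groups of class and library, the members did not follow 1 pattern. The Pearson correlation of log2 levels was highest for Pkm and Slc16a3 (0.82), Aldoa and Slc16a3 (0.82), Slc2a1 and Slc16a3 (0.79) and Pfkp and Gapdh (0.77), and lowest for Slc2a1 and Pfkp (−0.60). These are descriptions over 16 points that share 2 libraries and their depths. The genes whose levels were most like the summed level, among 2936 genes with a mean of at least 50 CPM, were S100a6 (0.93), Sem1 (0.87), Myo1f (0.86), Itgb2 (0.85) and Fxyd5 (0.85). Of the fixed lists, Taldo1 (0.70), Ndrg1 (0.64) and Gpi1, glucose phosphate isomerase (0.60), came closest.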

How the data were processed

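For each library the authors deposited a matrix of UMI counts per gene and cell barcode, made with Cell Ranger 3.0.2 per the file headers. The submitters' processing notes name mm10 and Seurat 4, and the annotation release is not given in the sources used here. The matrices hold 3185 (WT) and 3020 (KO) barcodes with 22191774 and 23384895 UMIs, fewer barcodes than the cell numbers the study states. Cells with 200 to 6000 genes and at most 15% mitochondrial UMIs were kept, as in the study. Counts were scaled to 10000 per cell, 2000 variable genes chosen without glycolysis genes, and cells joined by 30 principal components, 15 neighbours and Leiden clustering at resolution 1 (scanpy 1.11.5, leidenalg 0.10.2), where the study used another clustering method, so class names are rebuilt ones and shares were not compared with it. Cluster naming required at least 3 fixed markers raised 2-fold. Scrublet marked 1 WT and 9 KO cells, too few to have worked, and was used only as an alternative (the top 3% of scores removed).

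For every class of a library the UMIs of its cells were added up and expressed in CPM, with exact Poisson, conditional binomial or Clopper-Pearson 95% intervals, computed on simulated counts first. Each cell was thinned to 500 UMIs for shares. With 1 library per genotype no test was run. Genes named from lists are up to 4 per class with at least 50 UMIs and the largest ratios past 2-fold. The members, lists and clusters shown were chosen with earlier results of these data known. Motifs and primers were matched to RefSeq promoters (GRCm38.p6) and GENCODE transcripts (GRCm38). Where a sequence table had no entry, none was printed.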

Additional observations from a re-analysis of the deposited data

Results flagged for a closer look

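For 6 of the 10 genes the KO to WT ratio pointed in opposite directions in a pair of classes. Each interval for counting error was clear of 0. The share of all genes with such a pair is not given here. Within a class 6.92% to 13.1% of all genes tested had intervals above 0 and 8.94% to 29.3% below. Genes with many UMIs pass more readily, so the count of 6 is not a result about these genes. The differences between classes were not tested, since each rests on 1 library per genotype. The pair shown for each gene is the one with the widest difference. Slc16a3, the lactate exporter, had a log2 ratio of 0.65 in neutrophil-like and −1.67 in resident macrophage-like cells, a difference of 2.32, with ranges over the alternatives of 0.20 to 0.91 and −2.07 to −0.51 and an interval that included 0 for each class under 1 of them. Eno1 had 1.52 in eosinophil-like and −0.53 in resident macrophage-like cells, a difference of 2.05, the first of these on 8 WT UMIs, and the resident macrophage value ran from −0.56 to 0.55 over the alternatives. Pkm had 0.63 in eosinophil-like and −0.75 in B cell-like cells (1.38 apart) and Ldha 0.55 in eosinophil-like and −0.54 in resident macrophage-like cells (1.09 apart), where the B cell-like value of Pkm reached −0.13 and the resident macrophage value of Ldha −0.039 under an alternative. Gapdh had 0.70 in eosinophil-like and −0.30 in T cell-like cells, a difference of 0.998. The median ratio of all genes was −0.24 in T cell-like and −0.22 in resident macrophage-like cells, and the intervals of Gapdh in the former and Eno1 in the latter include it. Pfkp had 0.37 in cDC2-like and −0.46 in cDC1-like cells, a difference of 0.82, and its cDC2-like ratio ran from −0.053 to 0.48 over the alternatives.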

How the results depend on the processing

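No paired analysis was possible because each genotype has 1 library. The summed ratio of resident macrophage-like cells (−0.28) was −0.11 at resolution 0.5, −0.19 with 4000 variable genes, 0.0938 with each library clustered alone, −0.016 with each cell assigned by its top marker score and 0.0850 with the Retnla cluster counted as resident, the last an alternative chosen after seeing the data. That of inflammatory monocyte-like cells (0.03) was −0.048 with each library alone and −0.024 by marker score. That of neutrophil-like cells (0.40) stayed within 0.32 to 0.51 under every alternative run. The cause was not tested. Members past 2-fold were 1 higher and 5 lower. Clustering each library alone gave 0 higher, as no cluster was then named eosinophil-like in both libraries, and a prior of 10 CPM gave 2 lower. The 6 ratios past 2-fold kept their sign wherever they could be computed. Of 79 member ratios, 68 to 79 kept their sign, or 53 of 69 with each library alone. Leaving out a replicate was not possible. Depth limits eosinophil-like cells most, with 167942 WT UMIs.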
